A study of Mus musculus with 36 samples.

Results

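The 4 h step toward lights on in WT mouse liver was examined by setting 3 arrays taken at ZT 0 against 3 arrays taken at ZT 20. These are 6 of the 36 arrays of the series and were chosen by genotype and time in their titles. ZT, Zeitgeber time, counts hours from lights on in a cycle of 12 h of light and 12 h of dark, so ZT 20 lies late in the dark phase and ZT 0 at its end. The WT mice were on the C57BL/6 background. The same step in TB mice, also C57BL/6, is given beside it. TB mice carried a lung adenocarcinoma, and the alleles of that model are not reported here. Whether each replicate was a separate mouse is not stated in the labels, and p-values cover only the variation among these arrays, some of which may be technical.

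In the clock of liver cells, BMAL1 (gene Arntl) with CLOCK or NPAS2 switches on the period, cryptochrome and Ciart genes, whose products then shut BMAL1 down. REV-ERB repressors and ROR activators compete at the Arntl and Npas2 genes and set when the activators are made. The same activators drive DBP, TEF and HLF, proline- and acid-rich (PAR) bZIP factors that bind D-boxes, from which NFIL3 represses. In mouse liver the period and PAR bZIP genes are known to peak around the change from light to dark, so the end of the night is the low side of their cycle.

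Promoter sequence is given first for some genes of these loops that are described below. Only windows with a match to the sites marked below are printed, and those of Dbp, Npas2 and Nr1d1, among others, had none. Each line is the 250 bases before a start site of the gene, 5′ to 3′ on the gene's strand, from RefSeq (build GRCm38.p6). Capitals mark an E-box (CACGTG, the site of BMAL1 with its partners), a D-box (TTATGTAA) or the core of a ROR element (TAGGTCA), searched on both strands.
Per1, chr11:69098699-69098948 (plus strand): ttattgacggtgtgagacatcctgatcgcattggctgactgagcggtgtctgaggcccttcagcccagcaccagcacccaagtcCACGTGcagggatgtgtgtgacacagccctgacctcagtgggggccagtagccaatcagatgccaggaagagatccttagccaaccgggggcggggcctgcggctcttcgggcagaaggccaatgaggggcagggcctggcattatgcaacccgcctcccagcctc
Ciart, chr3:95882229-95882478 (minus strand): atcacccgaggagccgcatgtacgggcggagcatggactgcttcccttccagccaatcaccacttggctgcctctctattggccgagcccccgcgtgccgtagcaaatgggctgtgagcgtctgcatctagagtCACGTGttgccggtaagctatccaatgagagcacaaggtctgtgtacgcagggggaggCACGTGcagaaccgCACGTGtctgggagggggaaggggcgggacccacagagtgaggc
Tef, chr15:81802423-81802672 (plus strand): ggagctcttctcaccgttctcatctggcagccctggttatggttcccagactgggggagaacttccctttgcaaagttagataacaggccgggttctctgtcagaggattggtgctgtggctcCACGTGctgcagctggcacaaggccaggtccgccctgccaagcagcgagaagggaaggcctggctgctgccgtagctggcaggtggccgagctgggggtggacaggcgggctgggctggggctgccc
Per3, chr4:151044666-151044915 (minus strand): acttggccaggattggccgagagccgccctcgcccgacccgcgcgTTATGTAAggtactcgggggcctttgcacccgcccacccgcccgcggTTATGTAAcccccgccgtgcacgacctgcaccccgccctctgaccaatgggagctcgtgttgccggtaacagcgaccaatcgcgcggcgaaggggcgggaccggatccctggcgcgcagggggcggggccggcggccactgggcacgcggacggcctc
Nfil3, chr13:52981040-52981289 (minus strand): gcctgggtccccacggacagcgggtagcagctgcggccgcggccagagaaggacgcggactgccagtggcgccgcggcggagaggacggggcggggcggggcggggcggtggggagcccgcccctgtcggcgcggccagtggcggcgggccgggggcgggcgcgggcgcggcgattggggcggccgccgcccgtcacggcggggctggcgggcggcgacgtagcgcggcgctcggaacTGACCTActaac

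The Ciart window held 3 E-boxes, with first bases at positions −116, −58 and −44 from the start site. The Per1 window held 1 E-box at −166 and the Tef window 1 at −127. Another Tef promoter held an E-box at −138, and the Cry1 promoter 1 at −60. Per3 held no E-box in this window but 2 D-boxes, at −205 and −158. Nfil3 held the ROR element core in reverse at −12. RefSeq promoters were matched for 17 of the 18 measured clock genes, 22 promoters in all, and 6 of these (27.3%) held an E-box, against 1406 of 20611 promoters of all measured genes (6.82%). The D-box and the ROR core each occurred in 1 of the 22 clock promoters (4.55%), against 0.767% and 2.04% of all promoters. A match is a description of the letters and not evidence of binding.

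Levels are the authors' probe set intensities, which are linear, and differences were taken on log2(intensity + 16), a scale that understates the change of dim genes. With limma fitted over all 36 arrays and Benjamini-Hochberg adjustment over 22180 genes, 0 genes (0%) passed an adjusted p of 0.05 in the WT step. The lowest adjusted p was 0.221. At an unadjusted p of 0.05, 1169 genes (5.27%) lay under the threshold, 522 of them higher and 647 lower at ZT 0, where 1109 would lie if no gene differed. All differences below are therefore given as values with their standard error and not as changes. The 3 ZT 0 arrays lay wholly on one side of the 3 ZT 20 arrays in 2159 genes (9.73%), above in 1019 (4.59%) and below in 1140 (5.14%). The median difference over all genes was −0.0032 log2, and the median of its size was 0.104 log2.

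Median intensities of the 6 arrays ran from 36.3 to 41.1, and arrays of the same group correlated at r = 0.966 to 0.985 across genes. No measure of RNA quality was examined. The arrays of the series fall into a set of 24 and a set of 12 along the first component of unnamed probe sets, a split taken from the data that no label explains. That component held 28.57% of the variance within groups of these probe sets. WT ZT 0 replicate 3 and WT ZT 20 replicate 2 belong to the smaller set, so each group has 1 array there and the set is balanced between them. Over all genes the median difference was 0.024 log2 in the larger set and −0.067 log2 in the smaller, and some genes and lists are described per set as well.

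The repressor genes of the clock had lower intensities at lights on. All 5 measured period, cryptochrome and Ciart genes had a negative difference, with a median of −0.74 log2, against −0.0032 over all genes, and the median was −0.44 log2 without WT ZT 0 replicate 1. Period proteins carry cryptochromes into the nucleus, where they block BMAL1. The Per1 probe set read 70.7, 66.9 and 29.3 in ZT 0 livers, against 136, 136 and 246 in ZT 20 livers. The difference of Per1 was −1.41 ± 0.34 log2 (SE, n = 3 each). The groups did not touch, and the lowest ZT 0 array, replicate 3, came from the smaller array set. Per3 stood at 8.88, 37.7 and 29.3 in ZT 0 livers, against 51.9, 54.6 and 46.9 in ZT 20 livers. Per3 thus differed by −0.77 ± 0.21 log2 (SE). The ZT 0 arrays again lay below, with replicate 1 under the added constant of 16.

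Ciart encodes CHRONO, a repressor that binds BMAL1. For Ciart, ZT 0 livers gave 23.2, 11 and 17.3 intensity units, against 28.1, 42.6 and 47.2 in ZT 20 livers. Ciart thus differed by −0.74 ± 0.24 log2 (SE). The groups stood apart at low intensity. Cry1 encodes the cryptochrome that holds repression late into the night. Cry1 intensity was 136, 159 and 227 in ZT 0 livers, against 220.2, 302 and 253 in ZT 20 livers. Cry1 thus differed by −0.55 ± 0.18 log2 (SE). The ZT 0 replicate of 227 exceeded the lowest ZT 20 array, so the groups overlapped. Cry2 differed by −0.20 ± 0.17 log2 with overlapping groups.

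The PAR bZIP activators also lay lower at ZT 0, and Nfil3, which opposes them, lay higher. The Tef probe set read 39.3, 63.1 and 48.0 in ZT 0 livers, against 107, 94.4 and 118 in ZT 20 livers. Tef thus differed by −0.90 ± 0.20 log2 (SE). Dbp stood at 27.0, 36.2 and 47.8 in ZT 0 livers, against 63.9, 92.5 and 70.4 in ZT 20 livers. Dbp thus differed by −0.80 ± 0.24 log2 (SE). For Hlf, ZT 0 livers gave 218, 204 and 192 intensity units, against 288, 259.8 and 252 in ZT 20 livers. Hlf thus differed by −0.36 ± 0.14 log2 (SE). In all 3 genes every ZT 0 array was under every ZT 20 array. Nfil3 intensity was 359, 355 and 317 in ZT 0 livers, against 233, 224 and 235 in ZT 20 livers. Nfil3 thus differed by 0.54 ± 0.17 log2 (SE). Here the order was reversed, again without overlap. The 4 genes had a median difference of −0.58 log2, which stayed between −0.61 and −0.52 when each of the 6 arrays was left out in turn.

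Among the activators only Npas2 separated the groups. NPAS2 is a partner of BMAL1 that can stand in for CLOCK. The Npas2 probe set read 443, 395 and 441 in ZT 0 livers, against 201, 308 and 215 in ZT 20 livers. Npas2 thus differed by 0.81 ± 0.26 log2 (SE). Every ZT 0 array was above every ZT 20 array. Arntl had almost the same level at both times. Arntl stood at 405, 416 and 505 in ZT 0 livers, against 421, 448 and 430.3 in ZT 20 livers. Arntl thus differed by 0.021 ± 0.19 log2 (SE). Clock differed by −0.13 ± 0.14 log2 and Arntl2, a BMAL1 paralog, by −0.0070 ± 0.15 log2, both with overlap.

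Nr1d1, which encodes REV-ERB-alpha, stood higher at lights on. For Nr1d1, ZT 0 livers gave 51.0, 40.8 and 66.4 intensity units, against 31.9, 14.9 and 16.4 in ZT 20 livers. Nr1d1 thus differed by 0.90 ± 0.37 log2 (SE). The groups did not overlap, and the step was 0.65 log2 in the larger array set and 1.42 log2 in the smaller. The ZT 20 arrays of 14.9 and 16.4 lay near the added constant of 16. Over the alternative fits the Nr1d1 difference ran from 0.46 to 1.34 log2. Its paralog Nr1d2 did not share this order, with a difference of −0.24 ± 0.28 log2 and overlapping arrays. Rora, an activator at ROR elements, differed by −0.21 ± 0.12 log2, and the DEC repressors Bhlhe40 and Bhlhe41 by 0.12 ± 0.21 and 0.11 ± 0.32 log2. All 3 overlapped.

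Of the 18 measured clock genes in these 4 lists, 9 had groups that did not overlap, against 9.73% of all genes. Those below were Per1, Per3, Ciart, Dbp, Tef and Hlf, and those above were Npas2, Nr1d1 and Nfil3. None of the 18 passed the adjusted threshold in limma, and Tef had the smallest p of them, with an adjusted p of 0.428.

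**Figure D1:**
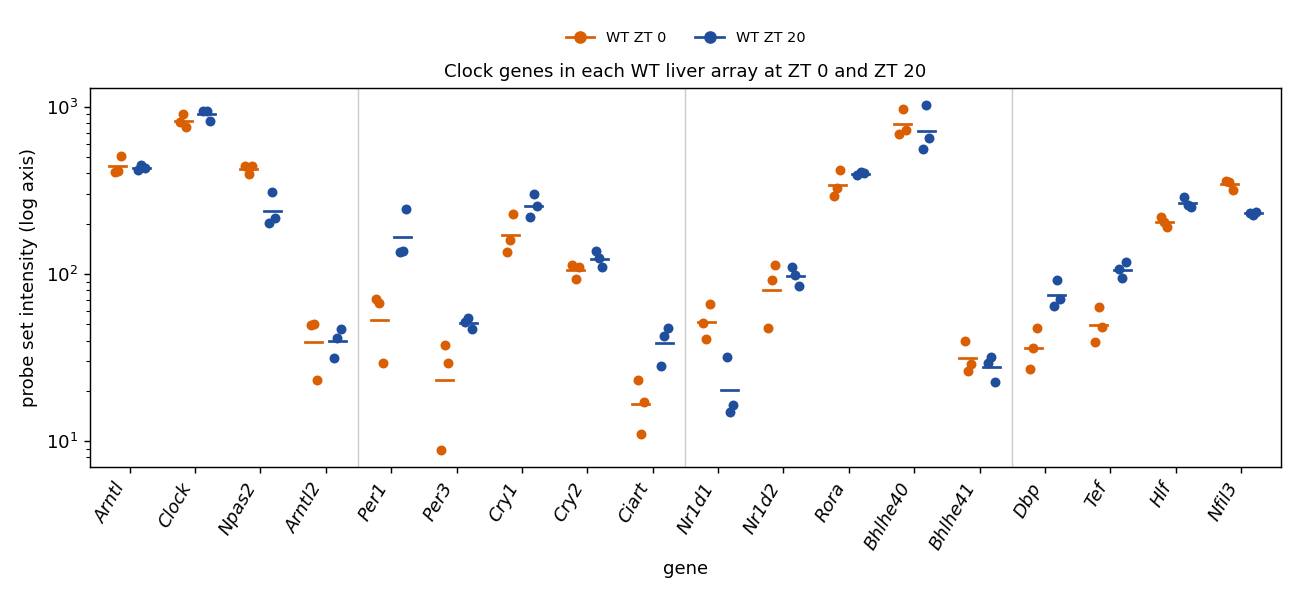
Probe set intensity (log axis) of the 18 measured clock genes in each WT liver array, ZT 0 in orange on the left and ZT 20 in blue on the right of each gene. Points are arrays, short lines are back-transformed means of log2(intensity + 16), and grey lines part the activators, repressors, REV-ERB, ROR and DEC genes, and PAR bZIP genes with Nfil3. The 9 genes without overlap include Per1, Tef and Dbp below and Nfil3 and Npas2 above.

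The other WT times place the step within the day. Mean levels below are back-transformed means of 3 arrays, given every 4 h in order from ZT 0 to ZT 20. Dbp averaged 36.3, 166, 1305, 929, 276 and 74.8, so ZT 0 was the lowest of the 6 times and the step made up 17.1% of the range of its log2 means. Tef was also lowest at ZT 0, at 49.4, and highest at ZT 12, at 287, and the step covered 40.6% of its range. Per1 averaged 52.8, 35.8, 263, 416, 222 and 166, and the step was 46.0% of its range. In Dbp, Tef and Per1, the ZT 16 mean was below ZT 12, the ZT 20 mean below ZT 16 and the ZT 0 mean below ZT 20.

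Npas2 and Nfil3 were at the other end of their range. Npas2 averaged 426, 217, 19.0, 23.3, 22.6 and 237, highest at ZT 0, and the step was 22% of its range. Nfil3 was likewise highest at ZT 0, at 343, and lowest at ZT 8, at 76.4. Arntl averaged 439.7 at ZT 0 and 433 at ZT 20 with 28.5 at ZT 8, so both times lay near the top of its range and the step was 0.637% of its range. Clock was highest at ZT 20, at 902, with 822 at ZT 0, while Arntl2 was lowest at ZT 0, at 39.3, with 39.6 at ZT 20 and a range of only 0.167 log2 over the day. Nr1d1 averaged 52.0, 796, 963, 355, 85.8 and 20.3, lowest at ZT 20, with the step at 19.0% of its range. Nr1d2 had 80.2 at ZT 0 and 97.7 at ZT 20, both far under its 779.7 at ZT 8. These time courses describe the arrays and were not tested for rhythm here.

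**Figure D2:**
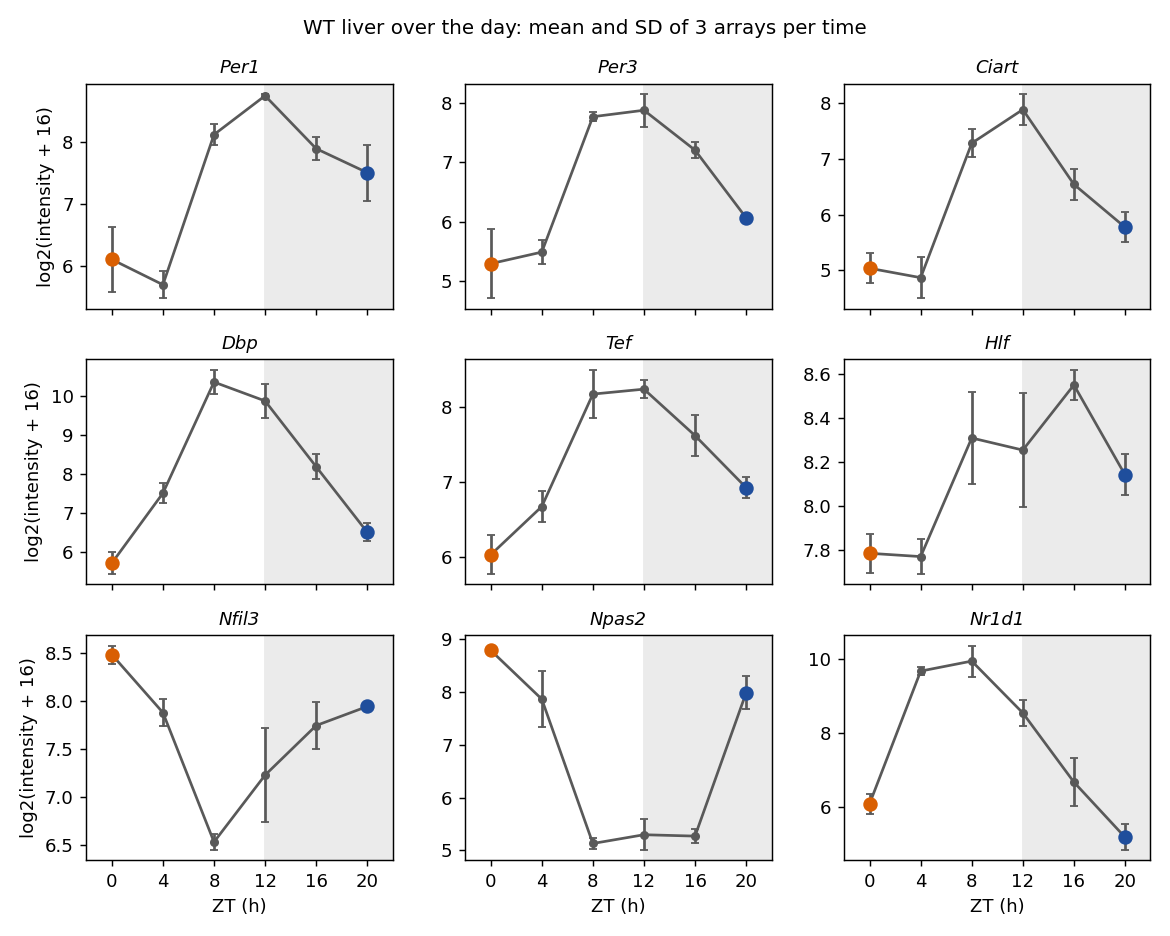
Mean and SD of log2(intensity + 16) over 3 WT arrays at each ZT (h) for the 9 clock genes whose ZT 0 and ZT 20 arrays did not overlap, with ZT 0 in orange, ZT 20 in blue and the dark phase shaded. ZT 0 is the lowest time for Dbp, Tef and Per3 and the highest for Npas2 and Nfil3, and ZT 20 is the lowest for Nr1d1.

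Like every list here, the list named clock outputs of liver was chosen with earlier results of these data known, so its counts are only a description. It held 25 measured genes, and whether the clock drives them was not tested. Of these, 15 had a negative and 10 a positive difference, with a median of −0.096 log2, and 8 had groups without overlap, 5 below and 3 above, against 9.73% of all genes, 5.14% below and 4.59% above. The sign of this median was not stable, at 0.032 log2 without WT ZT 0 replicate 3, −0.18 log2 without WT ZT 20 replicate 3, 0.042 log2 in the larger array set and −0.16 log2 in the smaller. Wee1, a kinase that restrains entry into mitosis and a known E-box gene of liver, had the smallest p of all 22180 genes. Wee1 intensity was 26.2, 20.1 and 28.4 in ZT 0 livers, against 63.2, 89.8 and 56.9 in ZT 20 livers. Wee1 thus differed by −1.06 ± 0.20 log2 (SE). The ZT 0 arrays lay well below, by a similar amount in the larger and smaller array sets, at −0.96 and −1.25 log2. Its adjusted p was 0.221, short of the threshold.

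Usp2, a deubiquitinase with a strong daily cycle in liver, showed the same order. The Usp2 probe set read 82.3, 86.8 and 102 in ZT 0 livers, against 185, 245 and 153 in ZT 20 livers. Usp2 thus differed by −0.96 ± 0.21 log2 (SE). Upp2, which breaks down uridine, also lay lower at ZT 0. Upp2 stood at 240.4, 404 and 467 in ZT 0 livers, against 762, 545 and 1079 in ZT 20 livers. Upp2 thus differed by −1.07 ± 0.27 log2 (SE). The step of Upp2 was −1.49 log2 in the larger set and −0.21 log2 in the smaller, so its size depended on the arrays. St3gal5, which makes the ganglioside GM3, differed by −0.98 ± 0.33 log2 without overlap.

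Nampt makes the rate-limiting enzyme of NAD salvage. For Nampt, ZT 0 livers gave 140.5, 198 and 237 intensity units, against 229.6, 384 and 337 in ZT 20 livers. Nampt thus differed by −0.68 ± 0.23 log2 (SE). The ZT 0 array of 237 lay within the ZT 20 range. Gys2, the glycogen synthase of liver, differed by −0.41 ± 0.20 log2 with all ZT 0 arrays below. Hsd3b7, an enzyme of bile acid synthesis, was higher at ZT 0 in every array and differed by 0.40 ± 0.19 log2.

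Outside the lists, the genes with the smallest p, chosen here after their values were seen, included Ccr8, a chemokine receptor of lymphocytes. Ccr8 intensity was 93.3, 161 and 139.5 in ZT 0 livers, against 254, 287 and 269 in ZT 20 livers. Ccr8 thus differed by −0.98 ± 0.19 log2 (SE). All ZT 0 arrays were lower, by −0.99 log2 in the larger set and −0.96 log2 in the smaller. Homer2, a scaffold protein, differed by −0.54 ± 0.12 log2 and Mrpl23, a protein of the mitochondrial ribosome, by −0.45 ± 0.11 log2, and both lay lower at ZT 0 without overlap. Loxl4, a lysyl oxidase-like enzyme, differed by 0.97 ± 0.23 log2, Nucb2, the precursor of nesfatin, by 0.90 ± 0.23 log2, and Phgdh, the first enzyme of serine synthesis, by 0.59 ± 0.15 log2, all higher at ZT 0 without overlap.

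Fatty acid synthesis genes leaned lower at lights on. Of 24 measured, 17 were negative and 7 positive, the median was −0.18 log2, and 5 lay below without overlap and 0 above, against 5.14% and 4.59% of all genes. The clearest were desaturases and elongases that shape unsaturated fatty acids. The Fads2 probe set read 2295, 2580 and 2692 in ZT 0 livers, against 2857, 4355 and 4683 in ZT 20 livers. Fads2 thus differed by −0.62 ± 0.18 log2 (SE). Scd1 stood at 5267, 5211 and 6199 in ZT 0 livers, against 7368, 7873 and 7988 in ZT 20 livers. Scd1 thus differed by −0.48 ± 0.16 log2 (SE). Both kept every ZT 0 array under every ZT 20 array. Fads1 differed by −0.41 ± 0.15 log2 and Elovl2 by −0.34 ± 0.13 log2, also without overlap. Fasn, the fatty acid synthase, picked after its values were seen, had a difference of only 0.058 ± 0.22 log2. The list median was −0.083 log2 without WT ZT 20 replicate 2 and −0.11 log2 without WT ZT 0 replicate 1. It was −0.18 log2 in the larger array set, where 11 of 24 were positive, and −0.27 log2 in the smaller, where 1 of 24 was.

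Genes of fat oxidation and PPAR-alpha targets had 24 negative and 6 positive differences among 30 measured, with a median of −0.22 log2, and 3 lay below without overlap, against 5.14% of all genes. For Acadl, ZT 0 livers gave 848, 823 and 879.6 intensity units, against 1034, 1136 and 1099 in ZT 20 livers. Acadl thus differed by −0.35 ± 0.12 log2 (SE). Acadl is the long-chain acyl-CoA dehydrogenase, and its groups did not overlap. Ehhadh, the peroxisomal bifunctional enzyme, differed by −0.66 ± 0.22 log2 and Acot1, an acyl-CoA thioesterase, by −1.19 ± 0.47 log2. Ppara itself differed by −0.37 ± 0.18 log2 with overlap. The median was −0.098 log2 without WT ZT 0 replicate 2, −0.11 log2 without WT ZT 20 replicate 2 and −0.45 log2 without WT ZT 20 replicate 3. WT ZT 20 replicate 2 stood apart in Cidea, a lipid droplet gene chosen after its values were seen, which was at 655 there and at 42.2 and 44.3 in the other ZT 20 arrays, against 33.7 to 44.0 at ZT 0. The same array held the highest level of Pnpla3, at 281, and of Cidec, at 142.

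Respiratory chain and ATP synthase genes were nearly uniform in sign. Of 30 measured, 29 were negative and 1 positive, with a median of −0.15 log2, and 8 lay below without overlap and 0 above, against 5.14% and 4.59% of all genes. Cox5b intensity was 600.5, 574 and 714 in ZT 0 livers, against 794, 845 and 878 in ZT 20 livers. Cox5b thus differed by −0.41 ± 0.15 log2 (SE). Cox5b is a subunit of complex IV, and its arrays did not overlap. Ndufs3 of complex I differed by −0.30 ± 0.13 log2, Uqcrfs1 of complex III by −0.22 ± 0.10 log2 and Sdhd of complex II by −0.16 ± 0.090 log2, all below without overlap. The median stayed between −0.17 and −0.14 log2 when any of the 6 arrays was left out, and was −0.17 log2 in the larger and −0.13 log2 in the smaller array set.

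Cytosolic ribosomal protein genes had 21 negative and 4 positive differences, with a median of −0.14 log2 and 5 of 25 below without overlap, against 5.14% of all genes. The Rpl7 probe set read 802, 644 and 664 in ZT 0 livers, against 1028, 881 and 876 in ZT 20 livers. Rpl7 thus differed by −0.40 ± 0.14 log2 (SE). Rpl7 was lower in every ZT 0 array. The list median was −0.063 log2 without WT ZT 20 replicate 1 and −0.070 log2 without WT ZT 0 replicate 3, and −0.083 log2 in the larger and −0.20 log2 in the smaller array set. Heat shock chaperones had 17 negative and 6 positive differences, a median of −0.10 log2, and 6 of 23 below without overlap, again against 5.14% of all genes. The median of the chaperones ran from −0.16 to −0.095 log2 with 1 array left out, and was −0.053 log2 in the larger and −0.16 log2 in the smaller array set. Hspe1 and Hspd1, the mitochondrial chaperonin pair, differed by −0.40 ± 0.16 and −0.24 ± 0.11 log2.

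Acute phase genes, which hepatocytes switch on in inflammation, had 21 positive and 4 negative differences among 25 measured. The median was 0.53 log2, against −0.0032 over all genes, and 5 lay above without overlap and 0 below, against 4.59% and 5.14% of all genes. Saa2 encodes a serum amyloid A. Saa2 stood at 1300, 7956 and 1825 in ZT 0 livers, against 524, 132 and 171 in ZT 20 livers. Saa2 thus differed by 3.45 ± 1.09 log2 (SE). Lbp binds bacterial lipopolysaccharide. For Lbp, ZT 0 livers gave 1290, 2022 and 585 intensity units, against 534, 342 and 385 in ZT 20 livers. Lbp thus differed by 1.45 ± 0.42 log2 (SE). In both, replicate 2 at ZT 0 was the highest array. Lcn2, an iron-siderophore binder, and Orm3, an orosomucoid, differed by 2.72 ± 0.97 and 2.10 ± 0.71 log2 without overlap.

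WT ZT 0 replicate 2 carried much of this difference. Without WT ZT 0 replicate 2 the list median was 0.21 log2 and 21 of the 25 differences were positive, and without WT ZT 0 replicate 3 the median was 0.83 log2. The median was 0.76 log2 in the larger array set, which holds that replicate, and 0.033 log2 in the smaller. The summed intensity of the 25 genes ran from 54660 to 123300 at ZT 0, against 52510 to 67320 at ZT 20. Kupffer cell markers, for liver macrophages, had their highest summed intensity in the same array, with sums from 1694 to 3069 at ZT 0, against 1464 to 2545 at ZT 20. Their 10 genes all had a positive difference with a median of 0.16 log2, and 0 lay without overlap. The median was −0.038 log2 without WT ZT 0 replicate 2, with 4 of the 10 positive. It was 0.042 log2 without WT ZT 20 replicate 2 and 0.37 and 0.44 log2 without replicate 1 of ZT 0 and of ZT 20, and 0.054 log2 in the larger and 0.38 log2 in the smaller array set. Neutrophil markers summed to 269 to 355 at ZT 0, against 260.1 to 331 at ZT 20. Their part in the acute phase result was not tested. In bulk liver, more cells of a type and more RNA per cell cannot be told apart.

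**Figure D3:**
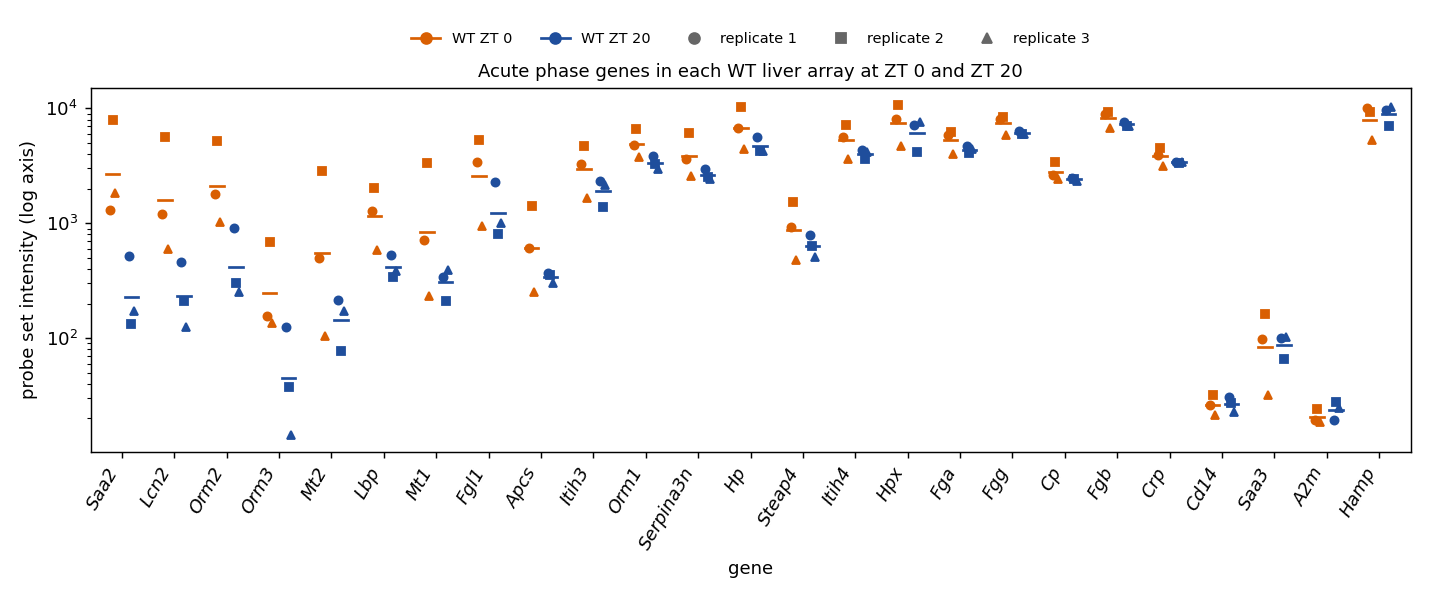
Probe set intensity (log axis) of the 25 measured acute phase genes in each WT liver array, ZT 0 in orange on the left and ZT 20 in blue on the right of each gene, ordered by their log2 difference. Marker shapes give the replicate and short lines are back-transformed means of log2(intensity + 16). Replicate 2 at ZT 0 is the highest array for Saa2, Lcn2, Orm2 and Lbp, and the fibrinogen genes differ little.

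Immediate early genes, transcribed within minutes of a stimulus, were mixed, with 15 positive and 9 negative among 24 and a median of 0.039 log2. Junb intensity was 192, 252 and 104 in ZT 0 livers, against 90.9, 83.5 and 88.6 in ZT 20 livers. Junb thus differed by 0.87 ± 0.28 log2 (SE). Junb lay above at ZT 0 without overlap, but the gap came mostly from replicates 1 and 2. The Fos probe set read 126, 193 and 38.0 in ZT 0 livers, against 42.7, 50.8 and 64.1 in ZT 20 livers. Fos thus differed by 0.78 ± 0.30 log2 (SE). Replicate 3, of the smaller array set, lay under every ZT 20 array for Fos. The step of Fos was 1.33 log2 in the larger set and −0.31 log2 in the smaller, and Zfp36 and Ccn1 gave 1.06 and 1.27 log2 in the larger set against 0.072 and −0.0089 log2 in the smaller. The list median ran from 0.025 log2 without WT ZT 0 replicate 2 to 0.31 log2 without WT ZT 0 replicate 3, and was 0.19 log2 in the larger and −0.15 log2 in the smaller array set. Endoplasmic reticulum chaperones and unfolded protein response genes had 25 positive and 7 negative differences among 32, a median of 0.16 log2 and 5 above without overlap, against 4.59% of all genes. The median was 0.24 log2 in the larger set and −0.042 log2 in the smaller, and 0.055 log2 without WT ZT 20 replicate 1 and 0.11 log2 without WT ZT 0 replicate 1.

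Interferon-stimulated genes had 18 positive and 1 negative differences among 19, with a median of 0.11 log2, which ran from 0.10 to 0.29 log2 with 1 array left out, when 14 to 16 of the 19 were positive. Mx2 stood at 81.3, 86.5 and 60.4 in ZT 0 livers, against 48.7, 42.6 and 47.3 in ZT 20 livers. Mx2 thus differed by 0.56 ± 0.19 log2 (SE). Mx2, an antiviral GTPase, lay above without overlap, as did Usp18, which removes ISG15 from proteins, at 0.52 ± 0.23 log2 and Irf9 at 0.33 ± 0.15 log2. Translation factors and aminoacyl-tRNA synthetases had 21 positive and 6 negative differences among 27, with a median of 0.091 log2 that ran from 0.036 to 0.14 log2 with 1 array left out. That median was 0.13 log2 in the larger array set and −0.034 log2 in the smaller. Eef1a1, the elongation factor that carries tRNA to the ribosome, differed by −0.15 ± 0.070 log2 in the other direction, without overlap.

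Single genes from several other lists were described next. For Igfbp1, ZT 0 livers gave 92.4, 303 and 367 intensity units, against 104, 28.2 and 50.8 in ZT 20 livers. Igfbp1 thus differed by 1.74 ± 0.75 log2 (SE). Igfbp1, which binds insulin-like growth factors and is repressed by insulin, was high in replicates 2 and 3 at ZT 0, while replicate 1 lay within the ZT 20 range. Irs2, an insulin receptor substrate, differed by 0.61 ± 0.31 log2 and lay above without overlap. G6pc, the last enzyme of glucose release, differed by 0.45 ± 0.30 log2 with overlap, and the gluconeogenesis list had a median of −0.043 log2. Tfe3, a regulator of lysosome genes, differed by 0.35 ± 0.11 log2 and Bnip3, a receptor for mitophagy, by −0.57 ± 0.19 log2, both without overlap. Cyp7a1, the rate-limiting enzyme of bile acid synthesis, differed by −0.48 ± 0.31 log2 with every ZT 0 array lower.

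Medians near that of all genes could hide opposite signs. Medians over cholesterol synthesis, bile acid synthesis and transport, proteasome subunits, NRF2 and glutathione genes, glucocorticoid receptor targets and cell cycle genes lay at −0.0082, −0.021, 0.017, −0.0065, −0.010 and −0.013 log2. Cholesterol synthesis genes had a median of 0.14 log2 in the larger array set, with 15 of 19 positive, and −0.23 log2 in the smaller, with 1 of 19 positive. Their median ran from −0.10 log2 without WT ZT 20 replicate 3 to 0.17 log2 without WT ZT 20 replicate 2. The median of glucocorticoid receptor targets ran from −0.17 log2 without WT ZT 0 replicate 2 to 0.042 log2 without WT ZT 20 replicate 1. None of the 35 pathway lists held a member past the adjusted threshold in limma. Hepatocyte markers were high at both times, summing to 55130 to 61180 at ZT 0 and 58050 to 62060 at ZT 20. Of the 9 measured, 4 lay below without overlap and 0 above, against 5.14% and 4.59% of all genes. Those below were Alb, Ttr, Apoa1 and Cps1, at −0.091 ± 0.066, −0.033 ± 0.076, −0.24 ± 0.095 and −0.16 ± 0.11 log2 (SE). Muscle, pancreas, and gallbladder and gut markers stayed low, the highest sums at ZT 0 being 661, 302 and 271, against 625, 272 and 245 at ZT 20. Adipocyte markers, which include Cidea, summed to 272 to 347 at ZT 0 and 299 to 961 at ZT 20. In WT ZT 20 replicate 2, Cidea was at 655. Adipoq, Plin1 and Fabp4 were at 77.3, 43.8 and 85.1 there, against 83.6, 44.0 and 69.2 in WT ZT 20 replicate 3.

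**Figure D4:**
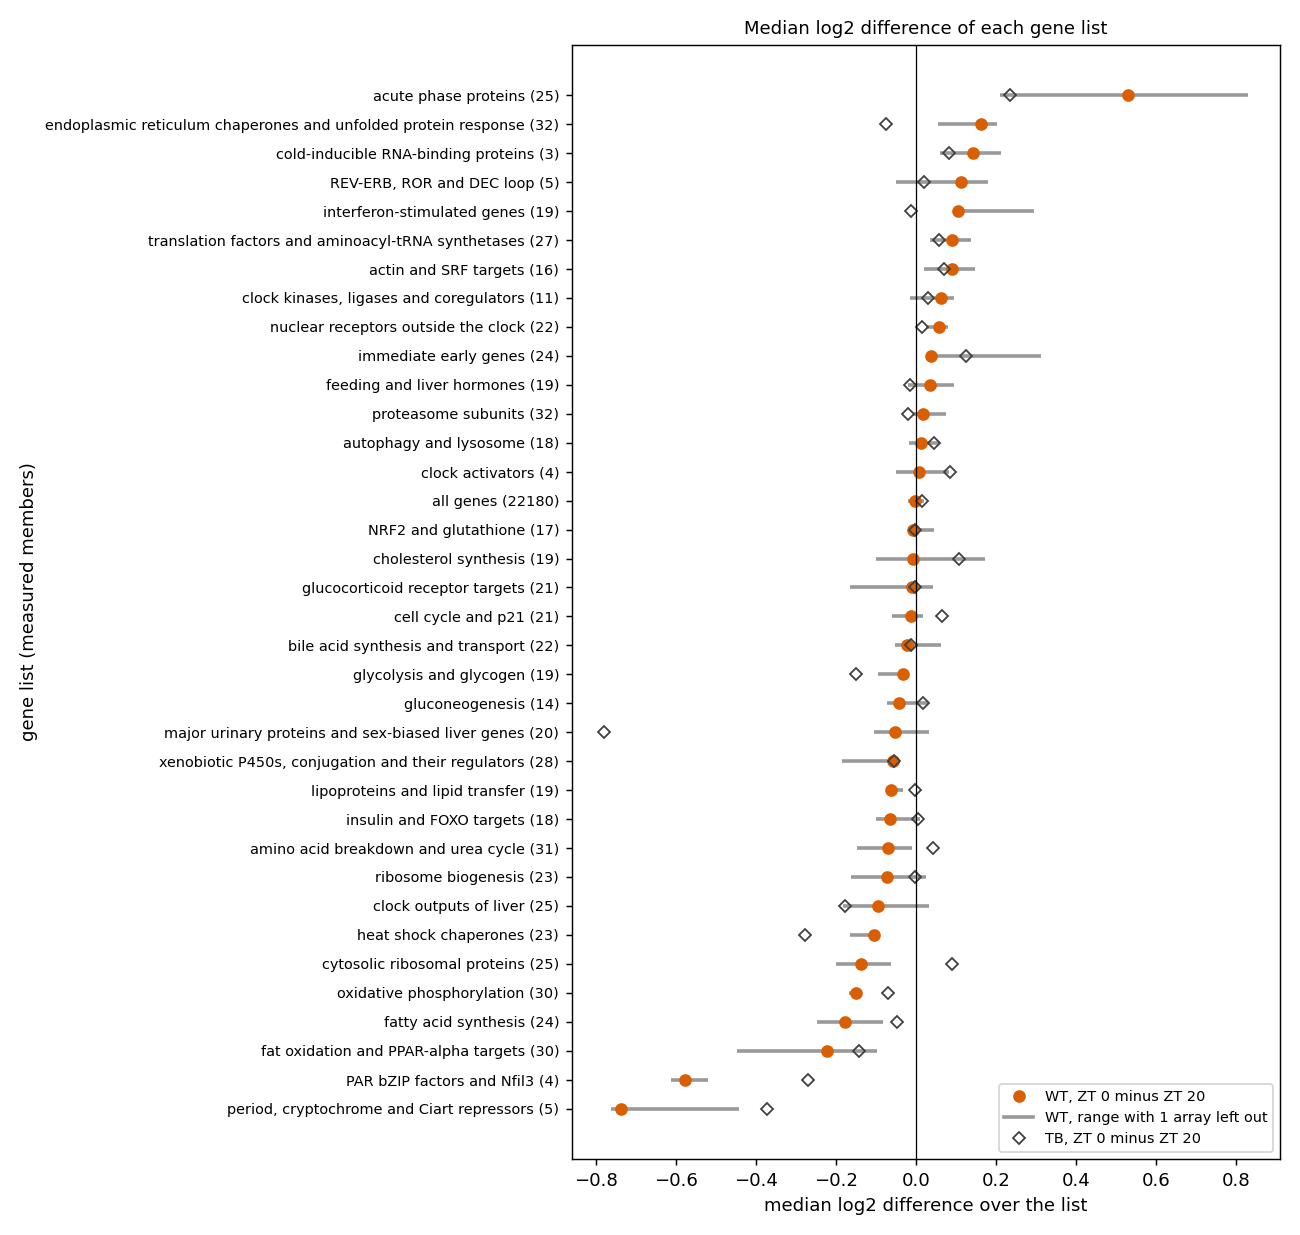
Median log2 difference, ZT 0 minus ZT 20, over the measured members of each pathway list and over all genes, in WT liver (orange points, with grey bars for the range when 1 of the 6 arrays is left out) and in TB liver (open diamonds). Period, cryptochrome and Ciart repressors lie lowest in WT at −0.74 log2 and acute phase proteins highest at 0.53 log2.

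The same 4 h step in TB liver shares no array with the WT step. limma called 0 genes (0%) there, with 704 (3.17%) at an unadjusted p of 0.05, and groups without overlap occurred in 1261 genes (5.69%). Across 22180 genes, which are not independent replicates, the WT and TB steps correlated at Pearson r = 0.163 and Spearman rho = 0.139 and had the same sign in 12244 (55.2%). Of the 1169 WT genes at an unadjusted p of 0.05, 764 (65.4%) had the same sign in TB. Of the 18 clock genes, 12 had the same sign and 3 separated the TB groups, Cry1 and Cry2 below and Nr1d1 above. Only Nr1d1 did so on the same side in both genotypes.

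Wee1 and Usp2 had steps of similar size in both genotypes. Wee1 differed by −1.06 ± 0.20 log2 in WT and −0.98 ± 0.20 log2 in TB, and Usp2 by −0.96 ± 0.21 log2 in WT and −1.22 ± 0.21 log2 in TB. Usp2 had the lowest adjusted p of the TB step, 0.0509. Nr1d1 differed by 0.90 ± 0.37 log2 in WT and 1.64 ± 0.37 log2 in TB, where ZT 0 replicate 1 was at 297.5 and the other ZT 0 arrays at 62.0 and 52.1. Per1 differed by −1.41 ± 0.34 log2 in WT and −0.57 ± 0.34 log2 in TB, and Ciart by −0.74 ± 0.24 log2 in WT and 0.16 ± 0.24 log2 in TB. Ribosomal protein genes had a median of −0.14 log2 in WT and 0.090 log2 in TB, and acute phase genes 0.53 log2 in WT and 0.24 log2 in TB. The endoplasmic reticulum and unfolded protein response list had 0.16 log2 in WT and −0.075 log2 in TB, with 11 of 32 positive in TB. Interferon-stimulated genes had 0.11 and −0.013 log2, with 8 of 19 positive in TB. Respiratory chain and ATP synthase genes had −0.15 log2 in WT and −0.070 log2 in TB.

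The difference between the WT and TB steps was itself tested in limma and called 0 genes (0%). At an unadjusted p of 0.05 there were 627 (2.83%), and the lowest adjusted p was 1. Naip5, an inflammasome sensor, and Fgf4, a growth factor, had the smallest p among named genes. Naip5 differed by 0.51 ± 0.16 log2 in WT and −0.36 ± 0.16 log2 in TB, and Fgf4 by −0.28 ± 0.15 log2 in WT and 0.58 ± 0.15 log2 in TB. No gene can therefore be called particular to the WT step.

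**Figure D5:**
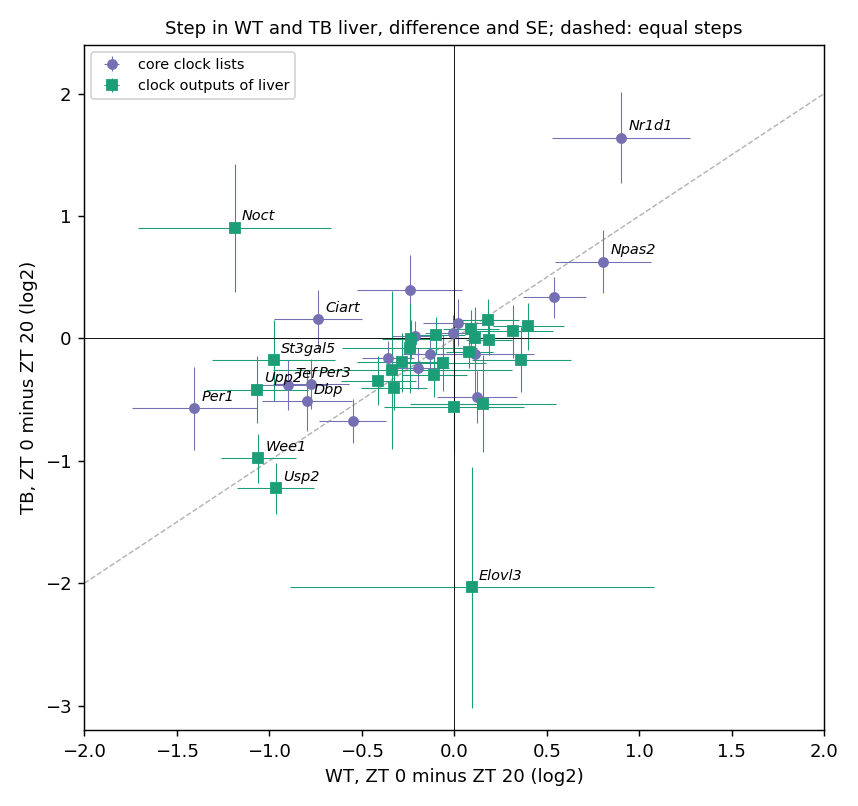
Difference ZT 0 minus ZT 20 (log2) in WT liver (horizontal) and TB liver (vertical) for the clock genes (circles) and clock outputs of liver (squares), with bars of 1 SE from limma and a dashed line of equal steps. Wee1 and Usp2 lie near the line at the lower left, Nr1d1 lies at the upper right, and Per1 and Ciart lie above the line at the left.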

How the data were processed

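The deposited values are probe set signals of linear intensity from 1-colour Affymetrix arrays, made by the authors with Affymetrix Expression Console 1.1.1 and PLIER 2.0, per the submitters' processing notes. How arrays were normalized against each other, and with which settings, is not given in the sources used here. Samples were grouped by genotype and ZT in the titles, 3 arrays in each of 12 groups, and this number limits the precision. Of 41345 probe sets, 23521 had 1 gene symbol, 1814 several and 16010 none in the platform annotation, and 23328 of those with 1 symbol (99.2%) were matched to RefSeq by Entrez identifier. For the 1082 genes with more than 1 probe set, the brightest on average was used, which gave 22180 genes. Of all values, 23.0% were under 16.

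Values were turned into log2(intensity + 16) without filter or further normalization. The 36 arrays were fitted with 12 group means in limma 3.58.1 (R 4.3.3; lmFit and eBayes), with two-sided tests, Benjamini-Hochberg adjustment over all genes and a threshold of 0.05. The fit was run on simulated data with planted differences and independent normal noise for each gene. That noise lacked the array set component, so the run cannot show how well p-values hold for these arrays. Contrasts were the ZT 0 minus ZT 20 step in WT, the step in TB, and WT step minus TB step.

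The members, the 35 pathway lists and the 12 marker lists (746 of 834 symbols measured) were chosen with earlier results of these data known. The rule named the 15 largest differences in each direction among called genes, of which there were none, every measured core clock gene, the 4 smallest p of each other list and 10 genes for the difference of steps, without gene models. The 20 genes with the smallest p and the genes so marked were added after values were seen. Alternatives were pseudocounts of 1 and 64, quantile normalization, median centring, a filter on the lowest genes, the mean of probe sets, fewer arrays in the fit, a variance trend, array weights, array set and replicate number as blocks, and each array left out. Replicate numbers were shared between groups, and whether they pair the samples is not stated in the labels. The main fit did not use them.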

Additional observations from a re-analysis of the deposited data

How the results depend on the processing

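The WT step kept 0 called genes in limma under both other pseudocounts, quantile normalization, median centring, the gene filter, the mean of probe sets, the fits on fewer arrays other than those named next, the variance trend and the array set block, and with each array left out (0 to 0). Array weights called 3 genes (Ccr8, Loxl4 and Wee1), the larger array set alone 1 (Gmppa), and the fit without WT ZT 12 replicate 3, an array with muscle transcripts in neither group, 1 (Ccr8). The array set block without that array, chosen after seeing the data, called 4 (Ccr8, Gm4759, Stra6l and Wee1). The cause was not tested. In the TB step 1 gene, Usp2, passed with a pseudocount of 64, quantile normalization, median centring, the gene filter, the variance trend, the array set block, without WT ZT 12 replicate 3, and with both of these last changes. With 1 array left out the TB step called 0 to 1 genes, Usp2 without TB ZT 0 replicate 1 and Sult1e1 without TB ZT 0 replicate 2, and the difference of steps called 0 to 1, Sult1e1 without TB ZT 0 replicate 2. With the replicate number as a block, 0 genes were called in the WT step, the TB step and their difference, with 1166, 705 and 624 at an unadjusted p of 0.05. Deviations of WT ZT 0 and ZT 20 arrays with the same number correlated at r = 0.072, −0.27 and −0.19. The highest correlation, 0.39, was between ZT 0 replicate 3 and ZT 20 replicate 2, both in the smaller array set. These values follow the array sets and cannot decide whether the numbers pair the samples.

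The sign of some single genes turned. Arntl was at −0.031 log2 with array weights, −0.052 in the larger set and −0.076 to 0.079 with 1 array left out. Arntl2 was at 0.0046 with a pseudocount of 64, 0.0084 after quantile normalization, 0.0022 after median centring, 0.15 with array weights, 0.27 in the larger set and −0.14 to 0.24 with 1 array left out. Pgam1, whose difference was −0.17, was at 0.098 with the mean of probe sets. Tuba1b, whose difference was −0.75, was at 0.049 in the larger set. With 1 array left out, Nr1d2 ran from −0.46 to 0.059, Bhlhe40 from −0.050 to 0.37, Bhlhe41 from −0.0060 to 0.19, Sfpq from −0.081 to 0.040 and Sult1e1 from −0.28 to 0.10. The median over the period, cryptochrome and Ciart genes was −1.18 log2 with a pseudocount of 1 and −0.38 log2 with 64, since these genes are dim. Intensities near 16, the added constant, may carry little signal over background, which was not examined. Small differences there may be missed with 3 arrays a group.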

Other observations

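Amino acid breakdown and urea cycle genes had 21 negative and 10 positive differences among 31 measured in the WT step, with a median of −0.069 log2, and 6 lay below without overlap and 1 above, against 5.14% and 4.59% of all genes. That median ran from −0.15 log2 without WT ZT 20 replicate 2 to −0.0096 log2 without WT ZT 20 replicate 3. Its sign turned between array sets, at −0.13 log2 with 9 of 31 positive in the larger and 0.0093 log2 with 17 of 31 positive in the smaller. Tdo2, which opens the breakdown of tryptophan, differed by −0.30 ± 0.11 log2 (SE) and Asl, an enzyme of the urea cycle, by −0.39 ± 0.23 log2, both below. Glud1, glutamate dehydrogenase, differed by 0.19 ± 0.11 log2 and was the gene above. Genes of lipoproteins and lipid transfer had 14 negative and 5 positive differences among 19, with a median of −0.062 log2 that ran from −0.075 to −0.031 log2 (without WT ZT 0 replicate 3) with 1 array left out. Apoa1, the main protein of high-density lipoprotein, had intensities of 4801, 4623 and 4767 in ZT 0 livers, against 5668, 5482 and 5601 in ZT 20 livers. It differed by −0.24 ± 0.095 log2 without overlap, with an adjusted p of 0.851 in limma. Its TB step was 0.011 ± 0.095 log2. The hepatocyte markers Alb, Ttr and Cps1 also lay below without overlap in the WT step. Ribosome biogenesis genes had 18 negative and 5 positive differences among 23, with a median of −0.071 log2. Without WT ZT 0 replicate 3 the median was 0.024 log2 with 14 of 23 positive, without WT ZT 0 replicate 1 it was −0.16 log2, and it was 0.0099 log2 in the larger and −0.21 log2 in the smaller array set. The nucleolar proteins Ncl and Npm1 differed by −0.27 ± 0.14 and −0.28 ± 0.14 log2 without overlap.

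Nuclear receptors outside the clock had 13 positive and 9 negative differences among 22, with a median of 0.058 log2. This median ran from 0.024 log2 without WT ZT 0 replicate 1 to 0.080 log2 without WT ZT 0 replicate 3. It was 0.088 log2 in the larger array set, with 15 of 22 positive, and −0.014 log2 in the smaller, with 10 of 22 positive. Thra, a thyroid hormone receptor, had intensities of 89.2, 84.1 and 72.2 in ZT 0 livers, against 66.5, 62.2 and 57.9 in ZT 20 livers, and differed by 0.32 ± 0.13 log2. Nr3c1, the glucocorticoid receptor, differed by −0.24 ± 0.10 log2 with every ZT 0 array lower. Obp2a, an odorant-binding protein gene in the list of glucocorticoid receptor targets, had intensities of 269, 372 and 163 in ZT 0 livers, against 85.8, 90.5 and 23.6 in ZT 20 livers, a difference of 1.84 ± 0.66 log2 in WT beside −0.017 log2 in TB. None of these genes passed the adjusted threshold in limma.

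Noct, which encodes the NADP phosphatase nocturnin, was picked after its values were seen. It had intensities of 49.7, 40.4 and 23.6 in WT ZT 0 livers, against 42.5, 134 and 181 in WT ZT 20 livers. Its step was −1.19 ± 0.52 log2 in WT and 0.91 ± 0.52 log2 in TB, and the difference of the steps, −2.09 log2, had an adjusted p of 1 in limma.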
